A study of Mus musculus with 2 samples.

Results

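The hedgehog pathway and the genes that mark the front edge of the limb bud were described in mouse limb-mesenchymal organoids, cultures of embryonic limb mesenchyme that form a distal and a proximal part. Members were the lines of the authors' deposited distal-against-proximal table whose gene symbol was on a list of 8 symbols: Gli1, Gli2, Gli3, Ptch1, Smo, Hhip, Pax9 and Asb4. All 8 were found among the 13916 protein-coding genes listed. Both groups held cells of the Slc:ICR strain, with no mutant allele named in the labels, kept for 48 h in medium with Fgf8b and Wnt3a and frozen on day 2. The age of the embryos is not given in the labels. As labelled, the groups differed in the area lit with ultraviolet light after in situ reverse transcription (photo-isolation chemistry, which releases cDNA from a chosen area of a tissue section). The distal and the proximal group were each a single library, 1 per side, made from 5 regions with their own barcodes. The tissue came from 5 organoids of 4 cultures. The side of the organoid and the library cannot be told apart, and the labels do not say which region came from which organoid.

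In the hedgehog pathway, a secreted ligand binds the receptor Ptch1, which otherwise holds back the membrane protein Smo. Released Smo acts in the primary cilium to turn the Gli proteins from repressors into activators of transcription, and Ptch1, Gli1 and Hhip are themselves switched on by the signal. In the limb bud the ligand is made at the posterior margin, Gli3 acts mainly as a repressor on the anterior side, and Pax9 and Asb4 are transcribed anteriorly. These genes are therefore read as markers of the front-to-back axis, whereas the regions here were chosen along the base-to-tip axis.

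Coverage was thin and uneven. Each region's size factor, the number by which its counts were scaled, was read from the lowest deposited means. It ranged from 0.329 to 0.832 in the distal and from 1.502 to 2.42 in the proximal regions, or about 46991 to 118978 and 214774 to 345649 counts in the listed genes. For genes with a low mean these factors also gave back the whole counts of every region. Markers of limb mesenchyme were present on both sides, with summed levels of 684 normalized counts in distal and 637 in proximal over all 10 markers. Single markers differed, with 2 called higher and 2 lower in distal, beside 0.395% and 0.582% of all genes. Cartilage markers, 7 of 8 in the table, had summed levels of 1386 in distal and 984 in proximal, with 1 called, higher in distal. It was Sox9, the largest part of both sums, at about 842 in distal and 522 in proximal. Of the 7, 5 had a positive and 2 a negative log2 change, beside 45.5% of all genes with a negative one. The lowest was Acan, at -1.57 from 7 distal and 69 proximal counts, which was not called. Acan was named after its values were seen. Markers of surface ectoderm were nearly absent, with 4 of 9 not in the table and summed levels of 0.678 in distal and 1.06 in proximal. Of the 7 marker lists, muscle showed the largest ratio of summed levels, with a summed level of 9.80 in distal and 109 in proximal and 4 of 9 called lower in distal. Pax3, Pax7, Myf5 and Des, of the same 9, had no distal count.

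By the authors' deposited table, none of the 8 members had an adjusted p under 0.05, while 0.977% of all genes did, 0.395% higher and 0.582% lower in distal. The median log2 change of the members was -0.09, beside 0.07 over all listed genes, with 3 positive and 5 negative. Over all listed genes 45.5% were negative. Gli2, Gli3, Ptch1 and Smo, which receive and relay the signal, and Hhip, which binds the ligand, did not pass the test. Their log2 changes lay between -0.46 and 0.62. The anterior genes Pax9 and Asb4 had the lowest p-values of the 8 and were both lower in distal, just short of the threshold. Their unadjusted p was under 0.05, as for 6.07% of all genes. The calls among other pathway genes were Gas1, Cdon and Boc, 3 cell-surface co-receptors of the ligand, which all fell in distal. In bulk regions such as these, fewer cells of a type and less RNA per cell cannot be told apart.

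**Figure D1:**
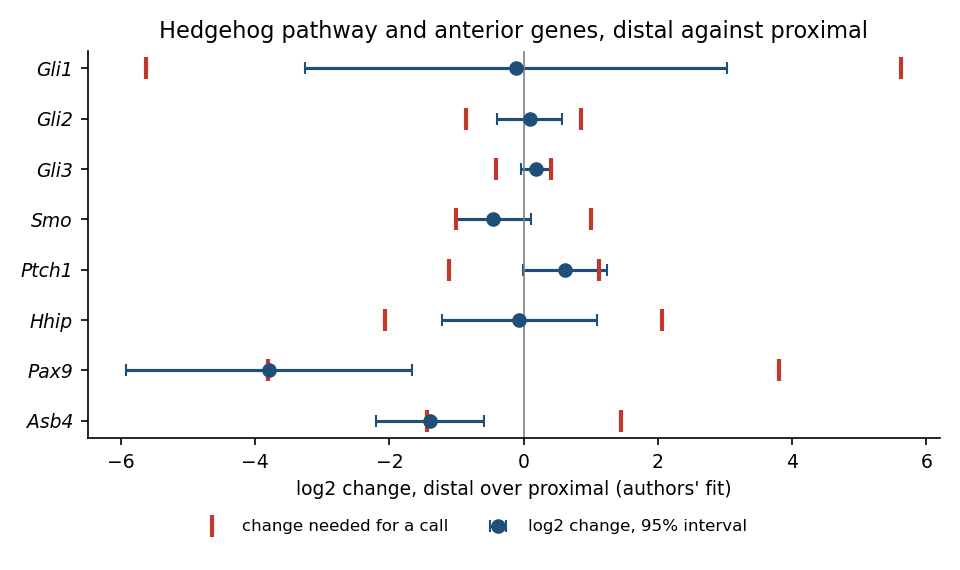
Log2 change of each member (x axis, distal over proximal, authors' fit) with its 95% interval, and red ticks at the change that would have been called at that standard error. Pax9 and Asb4 sit just inside their left tick at -3.79 and -1.40, while the interval of Gli1 runs from -3.26 to 3.04.

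Pax9, a paired-box transcription factor of the anterior limb mesenchyme, pharyngeal pouches and sclerotome, was the member with the clearest separation between the sides. Its gene lies on the plus strand at chr12:56691767-56712822 (GRCm38, ENSMUSG00000001497). No count of Pax9 was found in any of the 5 distal regions, which allows a level of up to 1.02 normalized counts (3 counts over the side, counting error only). The proximal regions, from the deepest to the shallowest, held 16, 8, 3, 11 and 6 counts, or 6.62, 3.62, 1.53, 7.02 and 3.99 normalized counts. Every proximal region therefore lay above every distal region. Pax9 averaged 4.56 ± 2.27 normalized counts in proximal (SD, n = 5 regions) and 0 in distal. At equal levels, the 44 proximal counts would correspond to 13.3 counts in the shallower distal regions. With distal set at 3 counts over its 5 regions, Pax9 was at least 4.45-fold lower in distal, a bound that covers no counting error.

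The authors' deposited table gave Pax9 a log2 change (± SE) of -3.79 ± 1.09, at p = 0.000494 (adjusted p = 0.0518). With no distal count, that change depends on how the fit treats zeros and is no bound. A two-sided exact permutation test over the 10 regions gave p = 0.00794, the smallest that 5 against 5 allows. It was run for the 3 members with recovered counts, and regions of a side share a library, so it compares the regions of these libraries. The range of means from 2 to 2.5, set after the values of Pax9 were seen, held 514 genes. Of these, 2.33% had every proximal region above every distal region, and 0% had the reverse. Only 4 of the 514, Pax9 included, had no distal count. Pax9 overlaps Slc25a21 and Gm15524 on the opposite strand, and the sources used here do not say whether counting used strand. Slc25a21 had a mean of 0.130 in the authors' deposited table, so few counts were assigned to it.

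**Figure D2:**
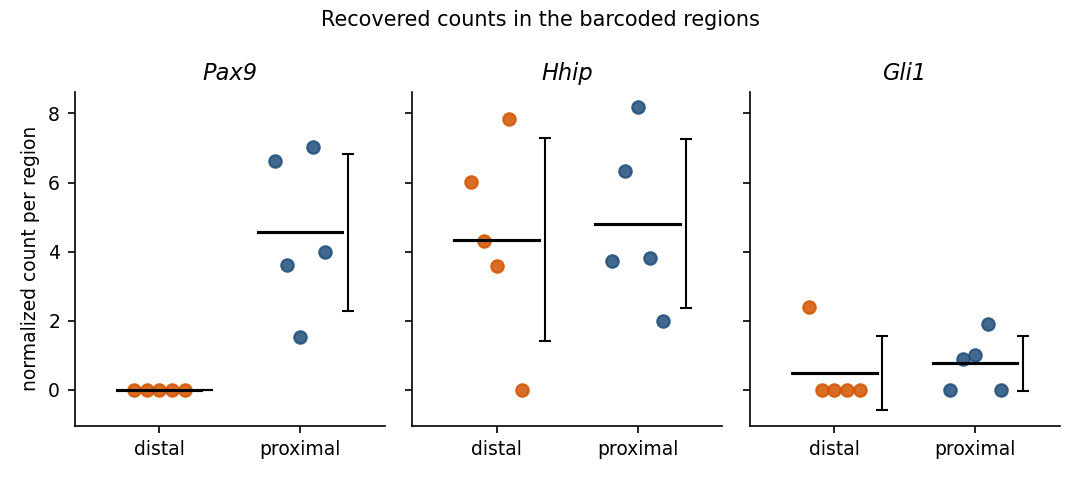
Normalized counts in each barcoded region (points), with the mean of the 5 regions (line) and their SD (bar), for Pax9, Hhip and Gli1. All 5 distal values of Pax9 are 0 and its proximal values run from 1.53 to 7.02, whereas the sides overlap for Hhip and Gli1.

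Asb4, which encodes an ankyrin-repeat and SOCS-box protein and is transcribed in the anterior limb bud, lies on the plus strand at chr6:5383386-5433022 (GRCm38, ENSMUSG00000042607). Its deposited mean of 16.2 and log2 change correspond to levels of about 8.91 normalized counts in distal and 23.5 in proximal, from about 26.1 and 226 counts. Whole counts per region could not be solved at this mean. In the authors' deposited table its log2 change was -1.40 ± 0.41 (SE), a 2.63-fold higher proximal level. The 95% interval of the change ran from -2.21 to -0.59 on the log2 scale. The p was 0.000726 and the adjusted p 0.0701, so the difference did not pass the threshold. The fitted spread of Asb4 between regions beyond counting error was 30.8%.

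How Pax9 and Asb4 stood to the threshold depended on the adjustment. At an adjusted p under 0.1 both passed, beside 1.16% of all genes. Adjusted over the 13916 listed genes only, Pax9 had an adjusted p of 0.0498 and Asb4 one of 0.0665 (0.999% of genes called). Restricted to means of at least 10, where Pax9 was not tested, Asb4 had an adjusted p of 0.0224 (3.97% called). With log2 changes centred on the median of all genes and adjusted over the listed genes, both passed, at 0.0410 and 0.0412 (1.03% called). Muscle markers were lower in distal as well, as given above, and their part in the Pax9 and Asb4 differences was not tested.

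The promoters of both anterior genes are shown because they differ in base composition from those of the signalling genes. RefSeq start sites (GRCm38.p6) were matched for 7 of the 8 members, with 2 sites for Asb4. In the 250 bases before the start, G and C made up 43.6% in Pax9 and 40.8% and 41.6% in Asb4. The same share was 67.2% in Gli2, 72.8% in Gli3, 78.4% in Ptch1, 68.4% in Smo and 76.0% in Hhip, beside a median of 52.4% over 32851 promoters. The windows printed are chr12:56695221-56695470 (plus strand) for Pax9, chr6:5383136-5383385 (plus strand) for the first Asb4 site and chr13:63565736-63565985 (minus strand) for Ptch1, the pathway's own target, for comparison. The Asb4 window ends just before the annotated gene, while those of Pax9 and Ptch1 lie inside the annotated span, upstream of a RefSeq start within it. Capitals mark a homeodomain motif.
Pax9: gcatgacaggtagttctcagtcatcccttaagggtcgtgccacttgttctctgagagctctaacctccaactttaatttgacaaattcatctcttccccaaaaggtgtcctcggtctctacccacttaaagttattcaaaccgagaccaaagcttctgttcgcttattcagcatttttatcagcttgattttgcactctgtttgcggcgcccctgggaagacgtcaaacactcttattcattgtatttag
Asb4: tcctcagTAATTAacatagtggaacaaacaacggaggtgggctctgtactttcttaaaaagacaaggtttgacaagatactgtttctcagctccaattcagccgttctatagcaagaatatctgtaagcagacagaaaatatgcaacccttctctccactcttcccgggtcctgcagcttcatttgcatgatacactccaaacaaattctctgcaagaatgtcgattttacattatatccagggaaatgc
Ptch1: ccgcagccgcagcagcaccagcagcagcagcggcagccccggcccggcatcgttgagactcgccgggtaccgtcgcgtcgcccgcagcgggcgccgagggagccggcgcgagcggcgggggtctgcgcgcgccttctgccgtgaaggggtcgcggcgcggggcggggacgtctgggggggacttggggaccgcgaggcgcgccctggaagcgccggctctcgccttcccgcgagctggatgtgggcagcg

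Both strands of these windows were searched for exact matches to 3 motifs, chosen with the results known: GACCACCCA, the core bound by the GLI proteins, TAATTA, a core shared by many homeodomain proteins, and CAATAAA, bound by posterior HOX proteins. The GLI site matched in none of the 8 member promoters and in 0.225% of all promoters. TAATTA matched once, in the first Asb4 promoter at 243 bases before the start, and in 4.84% of all promoters. CAATAAA matched in none of the 8 and in 1381 of the 32851. A match or its absence describes these letters in this window only.

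Among the receptors, Ptch1, the hedgehog receptor and a direct readout of the signal, had the largest positive change of the members. Its gene lies on the minus strand at chr13:63508328-63573598 (GRCm38, ENSMUSG00000021466). With a mean of 29.0 it reached levels of about 35.1 normalized counts in distal and 22.8 in proximal. The authors' deposited table gave Ptch1 a log2 change (± SE) of 0.62 ± 0.32, at p = 0.0525 (adjusted p = 0.948). Its interval ran from 0.995-fold to 2.37-fold higher in distal, so the data hold both no difference and a more than doubled level. Ptch1 was also uneven between regions. Its fitted spread beyond counting error was 29.2%, against 18.2% for Gli2 at nearly the same mean, and its standard error would have been 0.17 from counting alone. The annotation places A930032L01Rik on the same strand within Ptch1, so some reads could belong to either.

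Smo, the membrane protein that carries the signal onward, lies on the plus strand at chr6:29735503-29761365 (GRCm38, ENSMUSG00000001761). Its mean of 18.7 corresponds to about 15.8 normalized counts in distal and 21.7 in proximal. The log2 change in the authors' deposited table was -0.46 ± 0.29 (SE, adjusted p = 0.991). A difference of about 2.01-fold would have been needed for a call at that error, and the interval reached from 1.07-fold higher to 2.03-fold lower in distal.

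Hhip, a membrane-anchored protein that binds the ligand and is induced by it, lies on the minus strand at chr8:79965851-80058006 (GRCm38, ENSMUSG00000064325). Whole counts could be solved for all its regions. The distal regions, from the deepest to the shallowest, held 5, 3, 2, 4 and 0 counts, and the proximal regions 9, 14, 16, 6 and 3. These were 6.01, 4.30, 3.58, 7.84 and 0 normalized counts in distal and 3.72, 6.33, 8.18, 3.83 and 2.00 in proximal. Scaled for depth, Hhip averaged 4.34 ± 2.93 normalized counts in distal and 4.81 ± 2.44 in proximal (SD, n = 5 regions each). The sides overlapped over nearly their whole range. The log2 change of Hhip in the authors' deposited table was -0.06 ± 0.59 (SE, adjusted p = 0.9998). The two-sided exact permutation test over regions gave p = 0.762. Leaving out single regions moved the ratio of its means from -0.47 to 0.17 on the log2 scale, so its sign depended on single regions.

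Gli3, the Gli protein that is cut into the main repressor form, was the most abundant member and the most precisely measured. It lies on the plus strand at chr13:15463235-15730026 (GRCm38, ENSMUSG00000021318). A mean of 241 placed it at percentile 99.9 of the listed genes, with about 257 normalized counts in distal and 226 in proximal. Its log2 change in the authors' deposited table was 0.19 ± 0.12 (SE, adjusted p = 0.991). The interval ran from 0.970-fold to 1.34-fold, so a Gli3 difference between the sides of more than 1.34-fold lay outside it. The fitted spread beyond counting error was 10.9%, the lowest of the members.

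Gli2, the main activator, lies on the minus strand at chr1:118834132-119053619 (GRCm38, ENSMUSG00000048402) and had a mean of 29.1. Its levels were about 30.0 normalized counts in distal and 28.2 in proximal. The authors' deposited table gave a log2 change (± SE) of 0.09 ± 0.24 (adjusted p = 0.991). The Gli2 interval ran from 0.762-fold to 1.48-fold.

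Gli1, an activator that is transcribed only where the signal is received and so serves as its readout, was close to the limit of detection. It lies on the minus strand at chr10:127329882-127341974 (GRCm38, ENSMUSG00000025407). In distal the deepest region held 2 counts and the other 4 held none. In proximal 3 regions held 2, 2 and 3 counts and the other 2 held none, so the sides overlapped. Gli1 thus rested on 9 counts in all, and at equal levels its 7 proximal counts would correspond to 2.12 distal counts. Its mean normalized count was 0.481 ± 1.07 in distal and 0.768 ± 0.803 in proximal (SD, n = 5 regions each). The authors' deposited table gave a log2 change (± SE) of -0.11 ± 1.61 (adjusted p = 0.9998), and the two-sided exact permutation test over regions gave p = 0.683. With so few counts, neither that change nor a ratio of the means gives a direction, and the depth could not show a difference. Arhgap9, on the opposite strand over Gli1, had 0.0452 as its mean in the authors' deposited table. Smo, Gli2, Gli3 and Hhip overlap annotated genes too, which are Gm13717 for Smo, Mir6346 for Gli2, Gm6556 and Gm48343 for Gli3, and Gm27820 for Hhip.

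Between genes, levels were compared per kilobase of merged exons in the GENCODE M21 annotation, on the deposited mean over all regions. Gli3 stood at 25.2 normalized counts per kilobase, Gli2 at 4.24, Asb4 at 4.12, Smo at 3.33 and Ptch1 at 2.04. Hhip stood at 0.504, Pax9 at 0.451 and Gli1 at 0.125. The deposited means carry no error, so neighbours such as Gli2 and Asb4, or Hhip and Pax9, were not told apart. The mean runs over both sides, and parts of the order turned with the side. Per kilobase Asb4 stood at 5.97 in proximal, above Gli2 at 4.11, and at 2.27 in distal, below Gli2 at 4.37, Smo at 2.80 and Ptch1 at 2.48. Pax9 stood at 0.901 in proximal, above Hhip at 0.530, and at 0 in distal, where Hhip stood at 0.479 and Gli1 at 0.0962. The order also assumes that counts scale with exon length, which the sources used here do not state for this library type. Without division by length, Asb4, at a mean of 16.2, stood below Smo at 18.7 and Ptch1 at 29.0. On this scale the transcript of the repressor-forming Gli3 was far above that of the signal readout Gli1.

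The rest of the pathway was read from lists chosen with earlier results of these data known. Of 40 hedgehog pathway genes, 37 were in the table and 3 were called, all lower in distal, beside 0.582% of all genes called lower. The median log2 change of the 37 was -0.06, beside 0.07 over all genes. With low sides set at 3 counts and 3 genes under that limit on both sides left out, it was -0.03, beside 0.02. All 3 calls were surface binders, in a list of 9 of which 8 were in the table. They are co-receptors that hold the ligand for Ptch1 and raise the response of a cell to it.

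Gas1, a lipid-anchored co-receptor, was the most abundant of these, at about 77.4 normalized counts in distal and 257 in proximal. In the authors' deposited table its log2 change was -1.73 ± 0.14 (SE, adjusted p = 4.65e-31), so proximal was 3.32-fold higher. Cdon, an immunoglobulin-domain co-receptor, stood at about 22.1 in distal and 46.4 in proximal. Its log2 change in the authors' deposited table was -1.07 ± 0.24 (SE, adjusted p = 0.00152). The related co-receptor Boc stood at about 43.1 in distal and 75.2 in proximal, with a log2 change (± SE) of -0.80 ± 0.18 (adjusted p = 0.00255) in the authors' deposited table. Gpc3, a glypican that competes for the ligand, was not called at a log2 change (± SE) of 0.08 ± 0.12 in the same table. The muscle markers that fell in distal moved in the direction of the co-receptors, and their part in these 3 differences was not tested.

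**Figure D3:**
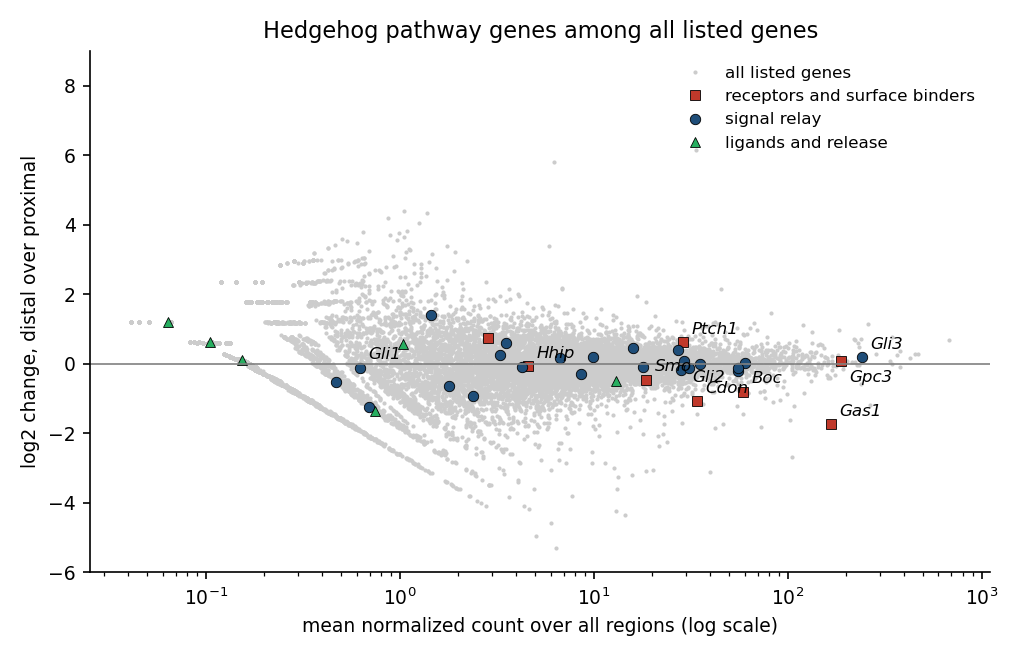
Log2 change (y axis, distal over proximal) against the mean normalized count (x axis, log scale) for all listed genes (grey) and hedgehog pathway genes by role. Gas1, Cdon and Boc lie below 0 at -1.73, -1.07 and -0.80, while the genes of the signal relay stay close to 0 where means are high.

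Inside the cell, none of the 23 relay genes in the table was called by the authors' adjusted p, and none had an unadjusted p under 0.05. Over all genes these shares were 0.977% and 6.07%, so few or no calls in a list of that size lie near the background. Their median log2 change was -0.08, and 0.00 for the 11 with a mean of at least 10. Prkaca, a catalytic subunit of the kinase that marks Gli proteins for processing, had a log2 change (± SE) of 0.40 ± 0.25 in the authors' deposited table. Gsk3b, a second kinase of that step, had one of 0.02 ± 0.17. Of 36 primary cilium genes, 35 were in the table and none was called or had an unadjusted p under 0.05, which for the calls is again near the background of 0.977%. Their median log2 change was 0.07, as over all genes. Among them Ift20, Kifap3, Rab23 and Wdr35 stood at -0.16, -0.01, 0.40 and 0.35 on the log2 scale in the authors' deposited table.

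Few counts fell on the ligand genes. Of the ligand genes only Ihh had a line in the table, with 1 count in a proximal region and none in distal. The others had no line, so no level is given for them. Disp1, which releases the ligand from the cells that make it, had a log2 change (± SE) of -0.48 ± 0.36 in the authors' deposited table. Hhat, which attaches its lipid, rested on 3 distal and 7 proximal counts.

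Genes known to be activated by the hedgehog signal were called in both directions. Of 16 on the list, 15 were in the table and 3 were called, 2 higher and 1 lower in distal, beside 0.395% and 0.582% of all genes. The median log2 change was 0.44, beside 0.07 over all genes. It includes 3 genes with at most 3 counts on either side and none in distal, whose positive changes depend on how the fit treats zeros. With low sides at 3 counts the median over 12 genes was 0.47, beside 0.02. Ccnd2, a cyclin of the G1 phase, rose in distal with a log2 change (± SE) of 0.73 ± 0.13 (adjusted p = 1.85e-05) in the authors' deposited table. Bcl2, an inhibitor of cell death, rose with a log2 change (± SE) of 1.04 ± 0.28 (adjusted p = 0.0295). Osr2, a zinc-finger factor of connective tissue and joints, fell by 2.85 ± 0.61 (SE) on the log2 scale in that table (adjusted p = 0.000814). The members on this list, Ptch1, Hhip and Gli1, were not called, and each of the 3 called genes is also known to answer to other signals.

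Along the front-to-back axis, 9 of 12 anterior genes had a negative log2 change, beside 45.5% of all genes. None was called, beside 0.977% of all genes. Pax9 and Asb4 were the 2 with an unadjusted p under 0.05. The median log2 change of the 12 was -0.70, beside 0.07 over all genes. Depth limits this list, since in 8 of the 12 the distal side held at most 3 counts, and in 1 more both sides did. With low sides at 3 counts the median over 11 genes was 0.14, beside 0.02 over all genes. The sign of the median therefore depended on how such genes were treated. On the shallower distal side 3 counts stand for 1.02 normalized counts, against 0.311 in proximal. A gene with no distal and few proximal counts therefore comes out positive by this setting alone, and the positive median gives no direction. The regions of Irx3 and Irx5 did not overlap between the sides either, on fewer counts than the 44 of Pax9. Irx3 had no distal count and 11 proximal counts, and Irx5 1 distal and 22 proximal counts, with every proximal region above every distal region after scaling. At equal levels only 3.34 distal counts would correspond to those of Irx3 and 6.67 to those of Irx5. With distal set at 3 counts the bounds were 1.11-fold and 2.22-fold lower in distal. The share of all genes so separated was not taken at their means of 0.555 and 1.23, so this separation cannot be weighed. Irx3 and Irx5 were named after their values were seen. Gli3, the most abundant anterior gene, had a positive log2 change of 0.19 and was not called.

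Of 15 posterior genes, 14 were in the table and 2 were called, both higher in distal, with a median of 0.04, or 0.05 over 13 genes with low sides at 3 counts. These were Hoxd13 and Hoxd12, whose log2 changes (± SE) in the authors' deposited table were 1.16 ± 0.14 and 1.10 ± 0.22. Over all genes, 0.395% were called higher and the median log2 change was 0.07. Hoxd12 and Hoxd13 also mark the distal limb, so that their change cannot be told apart from the base-to-tip axis. Of the 5 posterior genes with an unadjusted p under 0.05, 3 were higher in distal and 2 lower, so the list held both directions. The third that was higher was Bmp2, a secreted BMP ligand, at a log2 change (± SE) of 0.71 ± 0.30 (adjusted p = 0.544) in the authors' deposited table. Those that were lower were Tbx3, a T-box repressor, and Grem1, a secreted BMP inhibitor. Tbx3 held 3 counts in distal and 57 in proximal, with every proximal region above every distal region after scaling. The share of all genes so separated was not taken at the mean of Tbx3, 3.43, so this separation cannot be weighed. Its level averaged 0.873 ± 1.21 normalized counts in distal and 5.98 ± 3.44 in proximal (SD, n = 5 regions each). Tbx3 was not called (adjusted p = 0.365 in the authors' deposited table). Grem1 held 2 distal and 38 proximal counts, and its regions overlapped between the sides (adjusted p = 0.755 in the authors' deposited table). Hand2, which marks the posterior mesenchyme, was not called. Bmp2, Tbx3, Grem1 and Hand2 were named after their values were seen. For Hand2, the log2 change in the authors' deposited table was -0.57 ± 0.32 (SE, adjusted p = 0.991).

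**Figure D4:**
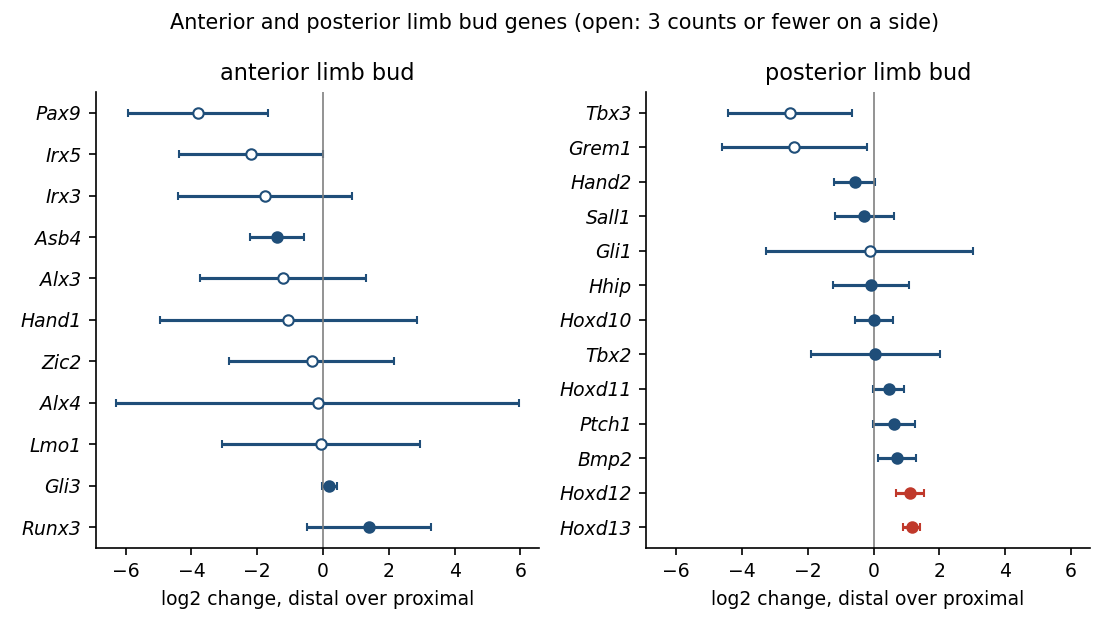
Log2 changes (x axis, distal over proximal) with 95% intervals for anterior and posterior limb bud genes with over 3 counts on at least 1 side, red where called. Open circles mark genes with 3 counts or fewer on a side, which include Pax9, and the called genes are Hoxd12 and Hoxd13 at 1.10 and 1.16.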

How the data were processed

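One distal and one proximal library of 5 pooled barcoded regions each were compared by the authors, and their table of 13916 protein-coding genes was the only file used. Its column names match the output of DESeq2, per the file headers. The deposited mean is a signal in normalized counts over all regions. The deposited log2 change and standard error are positive towards distal, the deposited statistic is a score equal to their ratio, and the deposited p-value and adjusted p follow from it. Genome builds mm10 and GRCm38 are named in the submitters' processing notes. The aligner, counting and annotation are not given in the sources used here, and p-values measure only the spread between regions.

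Size factors were read from means shared by at least 20 genes that were no sum of lower ones. Whole counts per region were then enumerated for each mean. For each set, the dispersion of a negative binomial fit was chosen to give the deposited standard error. Sets were kept where the fit gave that error and the deposited log2 change within 0.001, so mainly the log2 change tested a set. A single set was found for all 6169 genes with a mean up to 2.5, with a largest log2 error of 5.66e-05, and for list genes with a mean up to 5. On simulated counts the method returned the right set for 166 of 166 genes. Sides were assigned by the authors' log2 change for genes with a single count, the higher value standing for distal (2.34 against 1.19). For other genes, levels per side were computed from the mean and the log2 change. Against 21 list genes with recovered counts and a mean of at least 2 they were off by a median of 4.76% in distal and 4.12% in proximal, and by at most 14.2%. The spread beyond counting is the square root of the dispersion that gives the deposited standard error.

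Calls are genes with a deposited adjusted p under 0.05, and intervals are 95% normal intervals from the deposited standard error. The change needed for a call is 3.50 standard errors, the smallest statistic among the calls. The fold against a side with no count is a bound at 3 counts per side, which covers no counting error. That limit is 1.02 normalized counts in distal and 0.311 in proximal. Medians with low sides at 3 counts therefore count genes with few proximal counts as higher in distal. Members and gene lists were chosen with earlier results of these data known. The genes named are the members, called list genes, the 2 list genes with the highest mean and the 2 with the lowest p at a mean of at least 10, and others said to be named after their values were seen. Positions and exon lengths are from GENCODE M21, and promoters from RefSeq, leaving out chromosome 18. One gene of the anterior list is not reported here, and the counts of that list leave it out. Python 3.11.15, numpy 2.4.6 and scipy 1.17.1 were used. Other thresholds, adjustments, centrings and single regions left out were tried.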

Additional observations from a re-analysis of the deposited data

Results flagged for a closer look

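In Gli1, the deepest distal region, with 2.40 normalized counts from 2 reads, stood apart from the other 4 distal regions, which were all at 0. It was the only 1 of 5 sets of regions of Pax9, Hhip and Gli1 whose extreme region stood apart by Dixon's criterion. The rate of about 1 in 20 sets for that criterion assumes continuous values and does not hold for 2 reads. If both reads fall in 1 region the criterion is always met, so the flag says nothing about the spread of Gli1. Without the deepest distal region Gli1 had no distal count.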

How the results depend on the processing

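The number of members called was 0, and stayed 0 at an adjusted p under 0.01 and with a log2 change of at least 1. It was 2 at an adjusted p under 0.1, and 2 when changes were centred on the median of all genes, which also adjusts over the listed genes only. Adjustment over the listed genes alone gave 1 (Pax9), and a minimum mean of 10 gave 1 (Asb4). Over all genes the 136 calls became 89 at an adjusted p under 0.01 and stayed within 1.5 times under the other 5 settings. The 3 calls of the hedgehog pathway list, Gas1, Cdon and Boc, were 3 under all 5 settings run. Centred on all genes, the log2 change of Pax9 was -3.86 and that of Asb4 -1.46. Centred on the genes at or above a mean of 10, that of Pax9 was -3.79. All 3 were past the threshold, but these fits also adjust over the listed genes only. That adjustment alone puts Pax9 at an adjusted p of 0.0498, and centring on genes at or above a mean of 10 left it at 0.0497. Asb4 stood at 0.0665 with that adjustment alone and at 0.0412 when also centred on all genes. Centred on genes at or above a mean of 10 it stood at 0.0642 and did not pass. No member changed sign under either centring. With single regions left out, the log2 ratio of Hhip ranged from -0.47 to 0.17 and the bound for Pax9 from 3.18 to 5.20. The ratio of Pax9 had no value without distal counts. That of Gli1 rests on 2 distal counts and is not given. No paired analysis was possible because the labels tie no distal region to a proximal one. Leaving out regions was not run for the other 5 members, whose counts per region were not solved. The distal regions limit the precision, with 2.93 as the sum of their size factors beside 9.65 for proximal.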
